A study of Mus musculus with 6 samples.

Results

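Genes of neural stem cells, cycling progenitors and newborn neurons were examined in RNA sequencing libraries of whole mouse brains. The list was chosen by name, matched through the GENCODE M21 annotation to the gene identifiers of the count files, and holds Nes, Hes5, Pax6, Mki67, Top2a, Eomes, Neurod1, Dcx and Tubb3. All 9 genes were found among the 54532 identifiers of the files, and all 9 passed the filter on low counts, as 16731 genes did. The brains came from C57BL/6J mice at postnatal day 14, with 1 library per brain. Per the labels, 3 control brains carried Mphosph8fl/+ with Nestin-Cre+ and 3 mutant brains carried Mphosph8fl/fl with the same transgene (labelled Mphosph8∆n, called Mphosph8 mutant here). Both groups therefore carried the recombinase and a floxed allele. The comparison is thus of brains heterozygous and homozygous for the floxed allele, and no brain without it was included. The study's text names Nestin-Cre+ but no floxed allele for the controls, and calls the animals littermates.

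MPP8, the product of Mphosph8, belongs to the HUSH complex, which silences chromatin marked by histone H3 lysine 9 trimethylation. Nestin-Cre is driven by regulatory sequence of the nestin gene and acts in neural progenitors and their progeny, so cells that do not descend from them, such as vessel cells and microglia, keep the floxed gene. In the embryo, radial glia divide and give rise to intermediate progenitors and then to migrating, postmitotic neurons. At the second postnatal week this sequence continues mainly in the cerebellar external granule layer, the walls of the lateral ventricles and the dentate gyrus, while oligodendrocyte progenitors divide throughout the brain. The 9 genes are used as markers of successive steps of this sequence, but several are also expressed by other or mature cells, as given below. In a whole brain, fewer cells of a type and less RNA per cell cannot be told apart.

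Library totals ran from 12956880 to 15223424 counts. Mphosph8 itself was at 55.8, 48.6 and 70.7 CPM (counts scaled to a common effective library size) in the control brains and at 33.1, 27.2 and 26.5 CPM in the mutant brains, with every mutant value below every control value, and its log2 fold change was -1.02 ± 0.12 (SE, edgeR adjusted p = 0.000157). Control replicate 3 stood apart in its sex-linked genes, with 3641 counts summed over the Y-linked genes Ddx3y, Eif2s3y, Kdm5d and Uty, against 0 or 1 in each other library. The X-linked Xist had 27 counts there and 11130 to 17697 in the others. No mutant brain was of this kind, so sex was not balanced between the groups, although the study states that littermates were matched for sex. Traits of that brain cannot be told apart from its sex. The libraries had the markers of brain tissue, with the 10 mature neuron markers summing to between 5261 and 5815 CPM and the 8 astrocyte markers to between 8086 and 9530.4 CPM. Among 7 markers of other organs, the liver gene Alb, the muscle gene Ckm, the pancreatic gene Ins2 and the epidermal gene Krt5 were too low to be tested. The other 3, Apoa2, Hbb-bt and Myh7, were tested, and Myh7 was higher in mutant brains (log2 fold change 1.02, edgeR adjusted p = 0.00205). Summed over the 7 markers, the libraries lay between 54.7 and 79.0 CPM.

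None of the 9 genes differed between control and Mphosph8 mutant brains at an adjusted p under 0.05 in edgeR's quasi-likelihood test, in DESeq2 or in limma-voom. Over all 16731 genes tested, 0.628% had an adjusted p under 0.05 in edgeR, made up of 0.532% higher and 0.0956% lower in mutant brains. A fold change over 2 as well was found for 0.359%. The log2 fold changes of the 9 genes lay between -0.30 for Eomes and 0.05 for Pax6, with a median of -0.12, against a median of -0.01 over all genes tested. The fold change was below 0 for 8 of the 9 genes and for 52.4% of all genes. Without control replicate 3 it was below 0 for 5 of the 9, with a median of -0.07, whereas all 9 were below 0 without control replicate 2 (median -0.19) or without mutant replicate 1 (median -0.17). At an unadjusted p under 0.05, 1 of the 9 genes was lower (Eomes), against 2.41% of all genes.

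**Figure D1:**
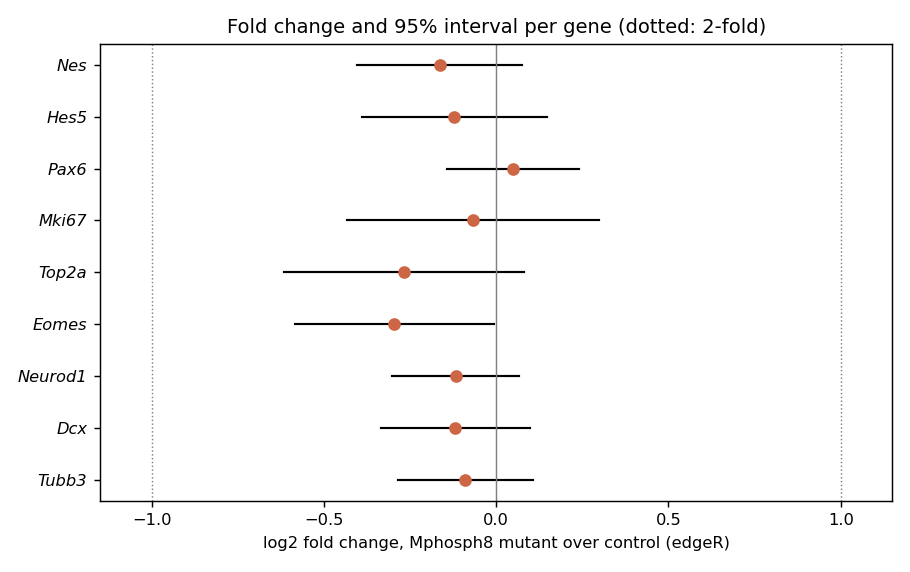
Log2 fold change of each of the 9 genes in Mphosph8 mutant over control brains (horizontal axis, edgeR, 3 libraries per group), with its 95% interval as a line and 2-fold limits dotted. Points run from -0.30 to 0.05, and no interval reaches a 2-fold change.

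Levels were compared between genes per kilobase of annotated exon, merged over all transcripts of a gene. The merged length can exceed that of the transcripts expressed, so the order is approximate. Tubb3, listed for newborn neurons but kept by neurons afterwards, was the most abundant. It was at 153 ± 14.6 CPM per kilobase in control and 144 ± 13.7 in mutant brains (SD, n = 3). Neurod1 followed at 47.0 and 43.4 CPM per kilobase, and Hes5 at 20.2 and 18.6. Nes, at 9.43 and 8.43, and Dcx, at 9.29 and 8.56, overlapped over the 6 libraries and were not separated. Pax6, whose length of 11694 bases was merged from 26 transcripts, was at 5.49 and 5.68 CPM per kilobase. The lowest levels were those of Eomes (2.99 and 2.44), Top2a (2.52 and 2.10) and Mki67 (2.23 and 2.14), and the libraries of these neighbours overlapped as well. Apart from the pairs named as overlapping, each gene was above the next in the order in all 6 libraries.

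**Figure D2:**
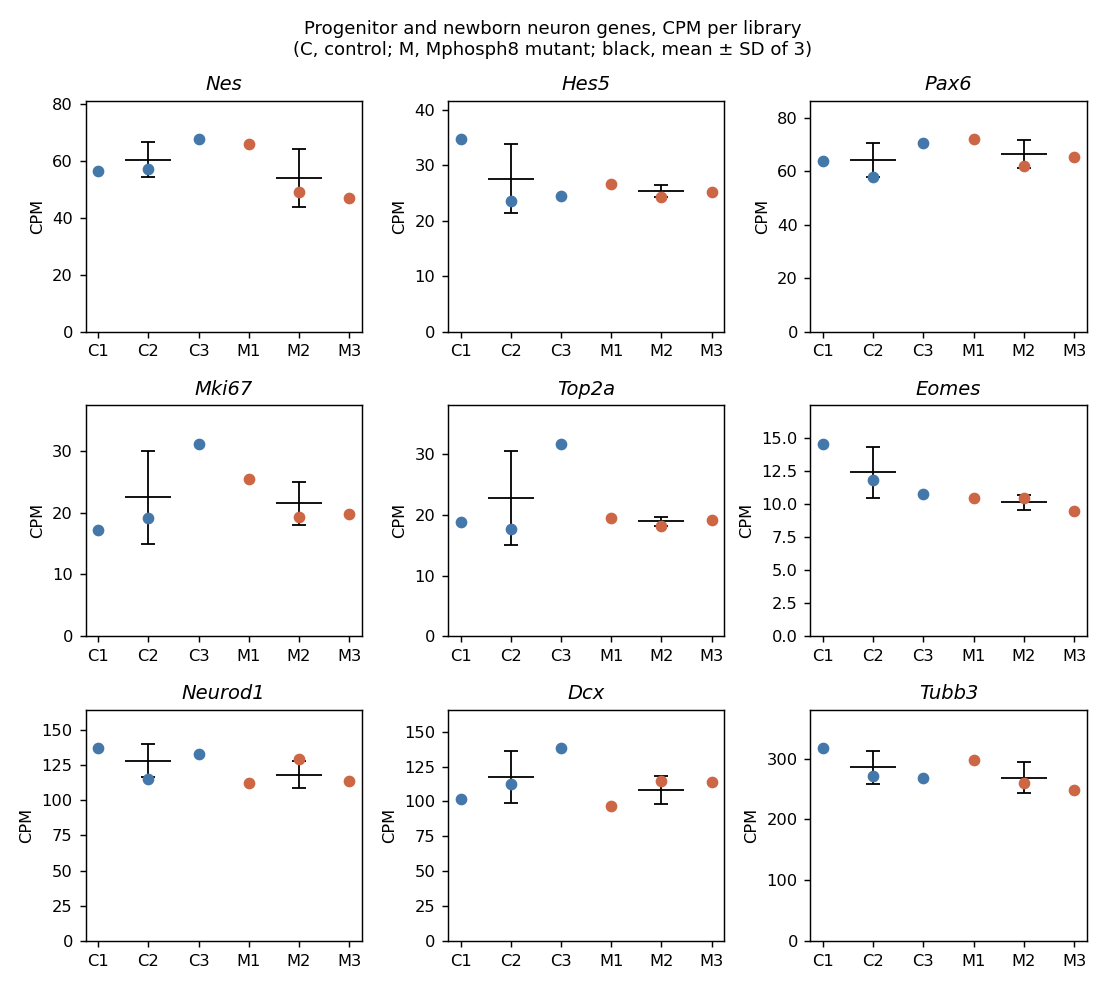
CPM of each of the 9 genes in each library (vertical axes from 0, in CPM). Blue points are control brains C1 to C3, orange points are Mphosph8 mutant brains M1 to M3, and black bars are the mean ± SD of 3. Mki67 and Top2a are highest in C3, at 31.1 and 31.7 CPM, and Eomes is the gene whose mutant points, from 9.45 to 10.5 CPM, all lie below the control points.

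The first step is represented by 3 genes of neural stem cells. Nes (ENSMUSG00000004891, chromosome 3, 87971078 to 87980451, plus strand, GRCm38 as for all genes here) encodes the intermediate filament nestin of radial glia and other neural stem cells, and is also expressed by vessel cells. It was at 56.5, 57.4 and 67.7 CPM in control and at 66.0, 49.2 and 47.1 CPM in mutant brains. Mutant replicate 1 lay among the controls and the other mutant brains below them. The means were 60.5 ± 6.23 and 54.1 ± 10.3 CPM (SD, n = 3). The log2 fold change was -0.16 ± 0.11 (SE, edgeR adjusted p = 0.906), with a 95% interval from 0.756 to 1.05 times the control level. Without mutant replicate 1 the value was -0.33, and its edgeR adjusted p was 0.149. The pericyte markers, which are genes of vessel wall cells, summed to between 571 and 673 CPM in control and between 527 and 612 CPM in mutant brains. Of the 6 pericyte markers 5 had a log2 fold change below 0 (3 without mutant replicate 2 or 3), of the 8 endothelial markers 6 did, and edgeR gave none of these 14 genes an adjusted p under 0.05. At an unadjusted p under 0.05 there was 1, the endothelial transporter gene Slco1a4, which was higher. The part of vessel cells in the Nes values was not tested.

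Hes5 (ENSMUSG00000048001, chromosome 4, 154960923 to 154962371, plus strand) encodes a basic helix-loop-helix repressor that Notch signalling induces in progenitors and that holds back neuronal differentiation. Its values were 34.6, 23.5 and 24.4 CPM in control and 26.5, 24.3 and 25.2 CPM in mutant brains. Control replicate 1 was above every other library, and the remaining 5 lay within 23.5 to 26.5 CPM. Mutant over control, the log2 fold change was -0.12 ± 0.13 (SE, edgeR adjusted p = 0.949), with an interval from 0.763 to 1.11 times, and it changed to 0.08 without control replicate 1. Of the 1363 exonic bases of Hes5, 433 lie opposite exons of Gm20421, and the sources used here do not give the strand setting of the counting, so its reads and those of Gm20421 may not be separated.

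Pax6 (ENSMUSG00000027168, chromosome 2, 105668900 to 105697364, plus strand) encodes a paired-box and homeodomain transcription factor of dorsal progenitors that is kept by cerebellar granule cells. It was at 63.8, 57.9 and 70.7 CPM in control and at 72.0, 61.8 and 65.5 CPM in mutant brains, so that the groups overlapped between 61.8 and 70.7 CPM. Its log2 fold change was 0.05 ± 0.09 (SE, edgeR adjusted p = 0.98), with an interval from 0.906 to 1.18 times.

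The other stem cell and radial glia genes were taken from a list of 15, all of them tested. None had an adjusted p under 0.05 in edgeR, DESeq2 or limma-voom. At an unadjusted p under 0.05 in edgeR 2 of the 15 were lower, against 2.41% of all genes. Their median log2 fold change was -0.01, with 7 genes above 0 and 8 below, and it lay between -0.04 and 0.06 when 1 library was left out. Thbs4, which encodes a secreted thrombospondin of astrocytes and subventricular zone cells, was at 7.11, 7.54 and 7.09 CPM in control and 5.36, 5.67 and 5.82 CPM in mutant brains. It had the lowest log2 fold change of the list, -0.37 ± 0.15 (SE, edgeR adjusted p = 0.629). The other was Tnc, which encodes the matrix protein tenascin-C, at -0.28 ± 0.11 (SE, edgeR adjusted p = 0.586). Sox9, a transcription factor gene of stem cells and astrocytes, had the highest value, 0.16 ± 0.08, with 50.8, 52.9 and 50.01 CPM in control and 58.3, 56.1 and 57.2 CPM in mutant brains and an edgeR adjusted p of 0.801. Groups did not overlap for 5 of the 15 genes, with Thbs4 and Hes1 lower and Sox9, Sox2 and Slc1a3 higher in every mutant brain, and in either direction this was the case for 11.6% of all genes. Sox9 is also counted among the 8 astrocyte markers. Of those 8, 2 were higher in every mutant brain, against 6.23% of all genes. The part of astrocytes in the values of this list was not tested.

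Because Hes5 reads out Notch signalling, the ligands, receptors and partners of that pathway were counted too. None of the 16 genes had an adjusted p under 0.05 in edgeR, DESeq2 or limma-voom, and their median log2 fold change was -0.03, with 6 above 0 and 10 below. The sign of this median turned when control replicate 2 (0.011), control replicate 3 (0.0080) or else mutant replicate 2 (0.020) was left out. The receptor gene Notch1 was at 51.2, 56.8 and 56.6 CPM in control and 57.1, 50.01 and 57.8 CPM in mutant brains. At an unadjusted p under 0.05 there was 1 gene, Nrarp, which encodes a feedback inhibitor of Notch, with 71.1, 72.1 and 58.4 CPM in control and 83.0, 75.8 and 83.6 CPM in mutant brains. Its log2 fold change was 0.27 ± 0.09 (SE, edgeR adjusted p = 0.397), the highest of the list. Maml1, a coactivator gene, was lowest at -0.24 ± 0.12 (SE, edgeR adjusted p = 0.804). Neither Hes5 nor Nrarp, both induced by Notch, passed the test.

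Cycling cells were represented by Mki67, whose product Ki-67 coats mitotic chromosomes, and Top2a, which encodes the DNA topoisomerase needed to separate them. Mki67 (ENSMUSG00000031004, chromosome 7, 135689784 to 135716361, minus strand) was at 17.2, 19.1 and 31.1 CPM in control and at 25.4, 19.3 and 19.7 CPM in mutant brains. Top2a (ENSMUSG00000020914, chromosome 11, 98992943 to 99024189, minus strand) was at 18.8, 17.7 and 31.7 CPM in control and at 19.5, 18.1 and 19.1 CPM in mutant brains. Control replicate 3 was the highest library for both genes. The remaining 5 libraries lay between 17.7 and 19.5 CPM for Top2a, and between 17.2 and 25.4 CPM for Mki67. The coefficient of variation of Top2a was 34.1% among controls and 3.73% among mutants, where counting error alone gives 5.49% and 6.32%.

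The log2 fold change of Mki67 was -0.07 ± 0.17 (SE, edgeR adjusted p = 0.985), with an interval from 0.741 to 1.23 times. That of Top2a was -0.27 ± 0.17 (SE, edgeR adjusted p = 0.893), with an interval from 0.652 to 1.06 times. These were the widest intervals among the 9 genes. Without control replicate 3, Mki67 was at 0.25 (edgeR adjusted p = 0.908) and Top2a at 0.05 (edgeR adjusted p = 0.983), and both had changed sign.

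The cell cycle list held 32 other genes, from replication factors and cyclins to spindle and kinetochore genes, and all 32 were tested. None had an adjusted p under 0.05 in edgeR, DESeq2 or limma-voom, and none an unadjusted p under 0.05 in edgeR. The log2 fold changes ran from -0.40 for Cdc20, an activator of the anaphase-promoting complex, to 0.18 for Birc5, which encodes survivin. Their median was -0.03, with 10 above 0 and 22 below, and without control replicate 3 it was 0.09, with 24 above 0 and 8 below. Without control replicate 1 it was -0.13, with 6 above 0 and 26 below. Of the 32 genes 21 had their highest CPM in control replicate 3, against 16.8% of all genes tested, a count made after the values were seen. The spindle gene Tpx2, named for this reason, was at 8.51, 7.84 and 13.5 CPM in control and 7.44, 7.61 and 8.36 CPM in mutant brains. Summed over the list, control replicate 3 was at 528 CPM and the other libraries lay between 459 and 488 CPM. That brain was also the one with Y-linked counts, whose part in the cell cycle values was not tested.

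**Figure D3:**
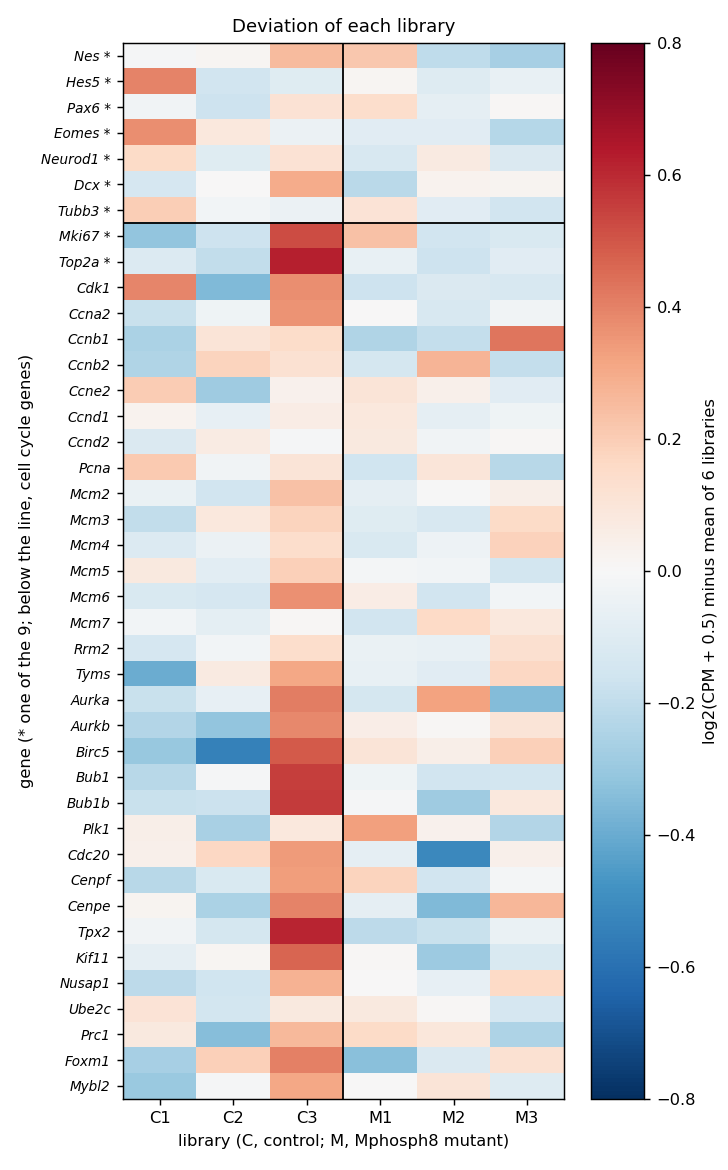
Deviation of each library from the mean of the 6 libraries for each gene (colour, log2(CPM + 0.5), red above and blue below the mean), with 7 of the 9 genes above the horizontal line and Mki67, Top2a and 32 other cell cycle genes below it. Columns C1 to C3 are control and M1 to M3 Mphosph8 mutant brains, and asterisks mark the 9 genes. The column of control replicate 3 is red for most cell cycle genes, 21 of the 32 having their highest value there.

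The promoters of the cycling genes Mki67 and Top2a and of the Notch target Hes5 are shown. They are RefSeq sequence of GRCm38.p6, as the 250 bases before the start site, 5′ to 3′ on the strand of the gene. In Mki67 (chr7:135716380-135716629, minus strand) and Top2a (chr11:99024190-99024439, minus strand) the capitals mark CCAAT, the NF-Y motif, and TTTGAA, a form of the cell cycle homology region, on either strand. In Hes5 (chr4:154960673-154960922, plus strand) they mark TGGGAA, the core bound by RBPJ, the DNA-binding partner of Notch, on either strand.
Mki67: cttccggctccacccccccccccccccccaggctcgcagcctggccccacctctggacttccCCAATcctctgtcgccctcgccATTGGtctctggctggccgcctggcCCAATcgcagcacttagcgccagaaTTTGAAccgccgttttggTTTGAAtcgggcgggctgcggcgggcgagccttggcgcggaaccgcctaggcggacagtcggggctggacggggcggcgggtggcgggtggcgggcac
Top2a: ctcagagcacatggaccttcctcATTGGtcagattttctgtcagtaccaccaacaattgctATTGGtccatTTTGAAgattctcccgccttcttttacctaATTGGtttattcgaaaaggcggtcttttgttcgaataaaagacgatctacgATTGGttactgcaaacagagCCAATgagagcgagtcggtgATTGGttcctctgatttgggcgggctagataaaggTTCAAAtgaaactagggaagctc
Hes5: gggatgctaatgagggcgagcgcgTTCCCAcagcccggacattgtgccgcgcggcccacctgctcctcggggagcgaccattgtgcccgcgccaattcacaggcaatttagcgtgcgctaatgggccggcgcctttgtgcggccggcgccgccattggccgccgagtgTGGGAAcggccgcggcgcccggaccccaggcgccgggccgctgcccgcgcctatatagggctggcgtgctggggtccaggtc
The Mki67 window held 3 matches of CCAAT and 2 of TTTGAA, the Top2a window 6 and 2, and the Hes5 window 2 of CCAAT and none of TTTGAA. The Hes5 window also held 2 matches of TGGGAA, of which the other windows shown held none. Of 32851 mouse promoter windows of this length, 33.8% held CCAAT, 16% TTTGAA and 21.6% TGGGAA at least once. Among the 9 genes TTTGAA was found in the windows of Mki67 and Top2a only, and TGGGAA in that of Hes5 only. CCAAT was also found in windows of Eomes, Pax6, Tubb3 and Dcx. Nes and Dcx, without TTTGAA, were highest in control replicate 3, as Mki67 and Top2a were. Eomes, Neurod1 and Tubb3, without TGGGAA, were highest in control replicate 1 as Hes5 was. Control replicate 1 was the highest library for 20.4% of all genes tested, and control replicate 3 for 16.8%. A link between motifs and library values was not tested. The E box motif CANNTG, to which proneural factors bind, was in 66.2% of all windows and is not marked. Matches are letters only, and binding was not measured here.

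The next step was covered by 2 transcription factor genes. Eomes (ENSMUSG00000032446, chromosome 9, 118478212 to 118486132, plus strand) encodes the T-box factor TBR2 of intermediate progenitors, which unipolar brush cells of the cerebellum and mitral cells of the olfactory bulb also express. It had the smallest counts of the 9 genes, with 219, 162 and 160 in control and 131, 140 and 130 in mutant libraries. These correspond to 14.6, 11.9 and 10.8 CPM and to 10.5, 10.5 and 9.45 CPM, and every mutant value lay below every control value, as was the case for 5.42% of all genes. The gap between the groups was narrow, however, from 10.5 to 10.8 CPM. Mutant over control, the log2 fold change was -0.30 ± 0.14 (SE), 0.815 times the control level with an interval from 0.667 to 0.995 times. Its unadjusted p in edgeR's quasi-likelihood test was 0.0454 and its adjusted p 0.752, so it did not pass the test. Its unadjusted p was 0.0899 in DESeq2 and 0.0557 in limma-voom. Without control replicate 1 the value was -0.16 (edgeR adjusted p = 0.98). Of its 4155 exonic bases, 118 lie opposite Gm33460.

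Markers of unipolar brush cells and olfactory projection neurons were set beside Eomes, since these cells express it after birth. The 5 genes summed to between 272 and 310.1 CPM in control and between 265 and 309 CPM in mutant brains, and their median log2 fold change was -0.00. None had an adjusted or an unadjusted p under 0.05 in edgeR. The lowest of them was Tbx21, a T-box gene of mitral and tufted cells, at 1.26, 0.952 and 1.22 CPM in control and 0.72, 1.12 and 1.16 CPM in mutant brains, with a log2 fold change of -0.19 ± 0.33 (SE). The oligodendrocyte markers, whose values were lower in mutant brains, summed to between 21576 and 25839 CPM in control and between 17129 and 19850 CPM in mutant brains. All 8 had a log2 fold change below 0, and in edgeR Mog (adjusted p = 0.0351) and Cldn11 (adjusted p = 0.0496), which encode a myelin surface protein and a myelin claudin, fell. These 2 calls were lost when any library other than mutant replicate 1 was left out. At an unadjusted p under 0.05 in edgeR all 8 markers were lower, against 2.41% of all genes. For 6 of the 8 every mutant value lay below every control value, against 5.42% of all genes. The part of these markers in the other values was not tested.

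Neurod1 (ENSMUSG00000034701, chromosome 2, 79452521 to 79456751, minus strand) encodes a basic helix-loop-helix factor of differentiating neurons that is abundant in cerebellar granule cells. It was at 137, 115 and 133 CPM in control and at 112, 129 and 114 CPM in mutant brains. Control replicate 2 lay among the mutant brains and mutant replicate 2 among the controls. The log2 fold change was -0.12 ± 0.09 (SE, edgeR adjusted p = 0.912), with an interval from 0.811 to 1.05 times. The exons of Neurod1 share 201 bases with Cerkl on the same strand.

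Of 17 other neurogenic transcription factor genes 15 were tested, and none had an adjusted p under 0.05 in edgeR, DESeq2 or limma-voom, nor an unadjusted p under 0.05 in edgeR. The proneural genes Neurog1 and Atoh1 were too low to be tested, at no more than 0.0746 and 0.727 CPM in any library. Of the 15 tested, 5 had log2 fold changes above 0 and 10 below, and the median was -0.04. Its extremes were the neighbouring homeobox genes of interneuron precursors Dlx5, at -0.32 ± 0.20 (SE, edgeR adjusted p = 0.884), and Dlx6, at 0.26 ± 0.15 (SE, edgeR adjusted p = 0.875). Dlx5 was at 5.19, 4.17 and 3.78 CPM in control and 3.52, 3.43 and 3.56 CPM in mutant brains. Dlx6 was at 7.85, 5.93 and 6.48 CPM in control and 7.76, 8.21 and 8.29 CPM in mutant brains. In the cerebellar granule cell lineage the 12 genes had log2 fold changes with a median of -0.03, between -0.13 for Mycn, a driver of granule progenitor division, and 0.15 for Cbln3, a synaptic organizer gene of mature granule cells. Their median was -0.09 without control replicate 2 and 0.0092 without control replicate 1. None of the 12 had an adjusted p or an unadjusted p under 0.05 in edgeR.

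Newborn neurons were represented by Dcx and Tubb3. Dcx (ENSMUSG00000031285, chromosome X, 143855842 to 143933311, minus strand) encodes doublecortin, a microtubule-binding protein of migrating neurons. It was at 102, 112 and 138 CPM in control and at 96.4, 115 and 114 CPM in mutant brains. Control replicate 3 was highest, as for the cycling genes, and mutant replicate 1 lowest. Mutant over control, the log2 fold change was -0.12 ± 0.10 (SE, edgeR adjusted p = 0.931), with an interval from 0.792 to 1.07 times, and without control replicate 3 it was 0.02. Tubb3 (ENSMUSG00000062380, chromosome 8, 123411424 to 123422015, plus strand) encodes a beta tubulin that neurons begin to express at their last division and keep afterwards. It was at 317, 272 and 267 CPM in control and at 297, 259.6 and 248 CPM in mutant brains, so that the groups overlapped. The log2 fold change was -0.09 ± 0.09 (SE, edgeR adjusted p = 0.947), with an interval from 0.821 to 1.08 times. None of the 50-base words of the Tubb3 transcripts occurred in another gene, and for the 9 genes this share was at most 0.67%, so reads shared with other tubulin genes are few.

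The 18 other genes of newborn and migrating neurons were all tested, and none had an adjusted p under 0.05 in edgeR, DESeq2 or limma-voom. The median log2 fold change was -0.04, with 7 above 0 and 11 below. Igfbpl1, a gene of immature neurons and their precursors, was the 1 gene with an unadjusted p under 0.05. It was at 48.1, 44.8 and 58.4 CPM in control and at 40.1, 37.1 and 38.6 CPM in mutant brains, with all mutant values below the controls. Its log2 fold change was -0.39 ± 0.10 (SE, edgeR adjusted p = 0.129), with the lowest adjusted p among the 108 genes tested in the 6 lists of progenitor, cell cycle and lineage genes. With no filter on low counts its edgeR adjusted p was 0.0101, and without control replicate 3 its value was -0.27 (edgeR adjusted p = 0.571). Tubb2b, a tubulin gene of growing neurons, was highest at 0.10 ± 0.09 (SE, edgeR adjusted p = 0.942).

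Over these 6 lists together, 0 of 108 genes had an adjusted p under 0.05 in edgeR, DESeq2 or limma-voom, where 0.628% of all genes did in edgeR. At an unadjusted p under 0.05 there were 4 in edgeR, or 3.70%, against 6.51% of all genes. The log2 fold changes lay between -0.40 and 0.27, with a median of -0.03.

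**Figure D4:**
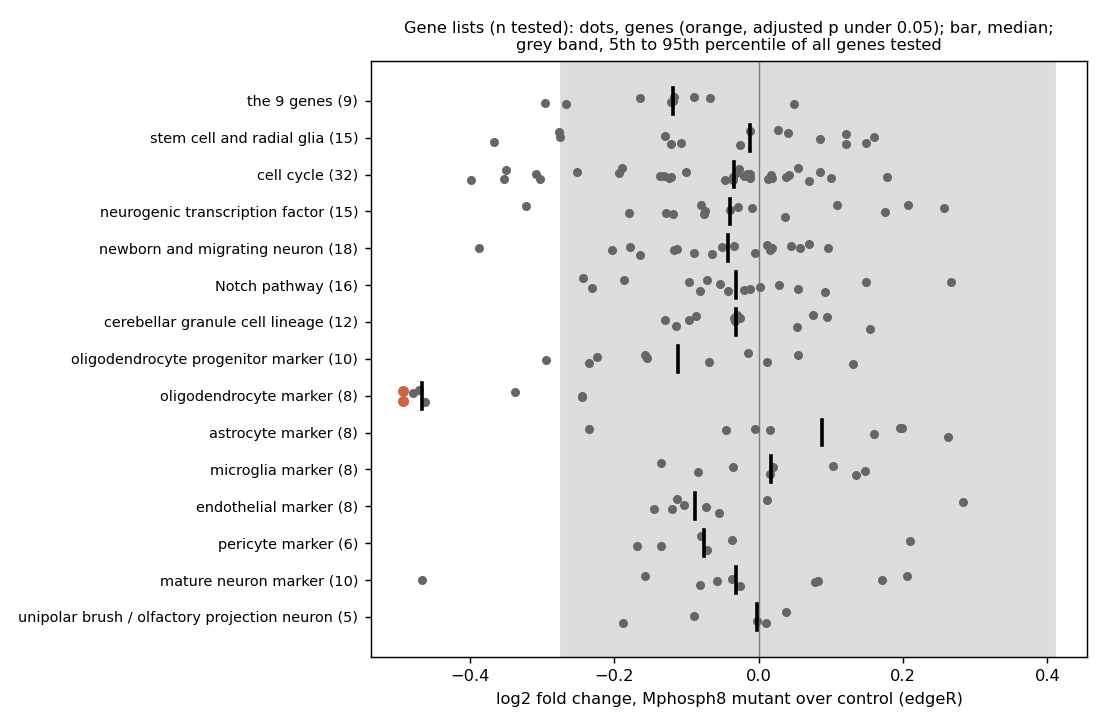
Log2 fold change in Mphosph8 mutant over control brains (horizontal axis, edgeR) of each gene tested in each list (rows, number tested in parentheses). Grey dots are genes, orange dots have an adjusted p under 0.05, black bars are medians and the grey band spans the 5th to the 95th percentile of all genes tested, from -0.27 to 0.41. The medians of the progenitor, cell cycle and lineage lists lie between -0.04 and -0.01, and the 2 orange dots are Mog and Cldn11 among the oligodendrocyte markers.

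Oligodendrocyte progenitors are a further dividing population of this age, and their 10 markers were set beside the cycling genes. None had an adjusted p under 0.05 in edgeR, DESeq2 or limma-voom. At an unadjusted p under 0.05 in edgeR 3 of the 10 were lower, against 2.41% of all genes. For 3 of the 10 every mutant value lay below every control value, against 5.42% of all genes. These markers are not among the 108 genes counted above. The median log2 fold change was -0.11, with 3 above 0 and 7 below. Pdgfra, the growth factor receptor gene that defines these cells, was at 119, 134 and 144 CPM in control and 139.5, 127 and 133 CPM in mutant brains, with a log2 fold change of 0.01. Sox10, a transcription factor gene of the whole oligodendrocyte lineage, was lowest, at 83.1, 70.3 and 70.0 CPM in control and 62.4, 60.0 and 59.8 CPM in mutant brains. Its log2 fold change was -0.29 ± 0.09 (SE, edgeR adjusted p = 0.21). The highest was Ptprz1, a receptor phosphatase gene, at 0.13 ± 0.11 (SE, edgeR adjusted p = 0.926). Summed over the 10 markers, the libraries lay between 2139 and 2443 CPM, with control replicate 3 highest. By gene, control replicates 1 and 3 each had the highest value for 4 of the 10 markers.

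The likeness of other genes to the members was measured as Pearson's r of log2 CPM over the 6 libraries, for Mki67, Eomes, Dcx and Hes5. It is a description over 6 brains that share 1 scaling. The genes are the 3 highest for each marker among all genes tested, so their r values are high by selection. Mki67 was most like Mmgt1 (0.999), Lyn (0.994) and Msn (0.988). Eomes was most like Gamt (0.992), the oligodendrocyte lineage gene Olig2 (0.991) and Tmem50a (0.99). Dcx was most like Ncaph (0.994), a condensin gene, Rab30 (0.994) and Baz2b (0.992). Hes5 was most like 2410015M20Rik (0.992), Psmb6 (0.983) and Shf (0.982). None of these 12 genes had an adjusted p under 0.05 in edgeR, and their log2 fold changes lay between -0.32 and 0.01.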

How the data were processed

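Polyadenylated RNA of 6 whole brains was sequenced by the authors as single reads of 50 bases, which were trimmed with Trim Galore 0.5.0, cleared of ribosomal, mitochondrial, phiX and adapter sequence with Bowtie2 2.3.4.1, aligned with STAR to GRCm38 and counted per Ensembl gene with featureCounts (Subread 1.6.2), per the study's methods and the submitters' processing notes. What was deposited are raw counts, 1 library per brain, without normalisation. How strand and reads shared by genes were treated is not given in the sources used here. Brains are of separate mice per the series design, and the litter of each is not labelled.

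Counts were fitted with edgeR 4.0.16 (R 4.3.3; filterByExpr, TMM, quasi-likelihood F test, genotype as the only term, all 6 libraries), with Benjamini-Hochberg adjustment over the 16731 genes tested. Standard errors were derived from the F statistic and 95% intervals from the t quantile. CPM uses the effective library size, and levels between genes are CPM per kilobase of merged GENCODE M21 exons, an annotation that matched 54495 of the identifiers. Depth, from 12956880 to 15223424 counts, limits the precision of low genes, and counting error covers sampling of reads only. The steps were tested on simulated data. The members and lists were chosen with earlier results of these data known. Named list genes are those with an adjusted p under 0.05 and the extremes of each list, and for 4 markers the 3 most alike genes. Others, Notch1, Tpx2, Pdgfra, Tnc, Hes1, Sox2, Slc1a3, Slco1a4, the low or Y-linked genes and those at an unadjusted p under 0.05, were named after their values were seen. Other fits used DESeq2 1.42.0, limma-voom (limma 3.58.1), RLE size factors, other filters, each library left out, the replicate block and a 2-fold limit. Promoter windows are RefSeq sequences, found for all 9 genes.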

Additional observations from a re-analysis of the deposited data

How the results depend on the processing

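The number of the 9 genes with an adjusted p under 0.05 was 0 under each of the 12 other fits and with a 2-fold limit. Of the 108 log2 fold changes these fits gave, 101 kept the sign, and the lowest adjusted p was 0.149. The 7 changes of sign came from leaving out 1 library, where values ran from -0.22 to 0.078 for Hes5 (0.078 without control replicate 1), from -0.020 to 0.13 for Pax6 (-0.020 without control replicate 2 and -0.013 without mutant replicate 1), from -0.23 to 0.25 for Mki67 (0.25 without control replicate 3 and 0.0014 without mutant replicate 2), from -0.42 to 0.051 for Top2a (0.051 without control replicate 3) and from -0.21 to 0.015 for Dcx (0.015 without control replicate 3). Over the same fits Eomes ran from -0.39 to -0.16, Nes from -0.33 to -0.07, Neurod1 from -0.19 to -0.07 and Tubb3 from -0.17 to -0.01. Mphosph8 stayed lower, from -1.13 to -0.85.

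Libraries of the same number had correlated deviations of 0.10, -0.05 and 0.08 over all genes tested. Mutant replicate 2 was most like control replicate 1 (0.03), and mutant replicate 3 most like control replicate 2 (0.09). Correlations this low cannot decide whether a shared number marks a pairing. In the fit with the replicate block 0 of the 9 genes had an adjusted p under 0.05, and Eomes was at -0.29 (edgeR adjusted p = 0.709).

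Over all genes, 105 had an adjusted p under 0.05, against 242 with no filter on low counts, 60 with a 2-fold limit and 66 to 162 without 1 library, the highest without mutant replicate 1. Of the 8 oligodendrocyte markers 2 did, against 5 with DESeq2, 5 with no filter, 1 with RLE size factors, 1 with a minimum of 1 CPM in 3 libraries, 4 with the block and 0 to 5 without 1 library, and all 8 were below 0 in each fit. Of the mature neuron markers 0 did, against 1 with no filter and 1 without mutant replicate 1, and Igfbpl1 did with no filter alone. The cause was not tested. Mki67, Top2a and Eomes had 130 to 469 counts per library, and among controls Mki67 and Top2a varied by 33.6% and 34.1% (coefficient of variation), where counting gives 5.53% and 5.49%.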

Other observations

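The 8 astrocyte markers include Sox9, which is also in the stem cell and radial glia list. Of these 8 markers 5 had a log2 fold change above 0, with a median of 0.09. Without control replicate 3 this was 4 of 8, with a median of 0.022. The highest was Aldh1l1, a folate enzyme gene, at 0.26, and the lowest Gfap, an intermediate filament gene, at -0.24. Of 8 microglia markers 5 were above 0, with a median of 0.02 that was -0.04 without control replicate 3, from Aif1 at -0.14 to Csf1r at 0.15. None of these 16 genes had an adjusted p under 0.05 in edgeR, DESeq2 or limma-voom, and 1, Aldh1l1, had an unadjusted p under 0.05 in edgeR. Of the 10 mature neuron markers 4 were above 0, from Nefm, a neurofilament gene, at -0.47 (edgeR adjusted p = 0.186) to Gad2, a GABA synthesis gene, at 0.21 (edgeR adjusted p = 0.573). The endothelial markers ran from -0.14 for Cdh5 to 0.28 for Slco1a4, and the pericyte markers from -0.17 for Rgs5 to 0.21 for Kcnj8.

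Among the markers of other organs, Myh7, which encodes the slow myosin heavy chain of heart and skeletal muscle, rose. It was at 6.12, 5.64 and 4.32 CPM in control and at 9.67, 11.8 and 11.1 CPM in mutant brains. Its log2 fold change was 1.02 ± 0.16 (SE, edgeR adjusted p = 0.00205), with a range from 0.89 to 1.13 over the other fits. Ckm, another muscle gene, had at most 0.291 CPM in any library.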
